A study of Mus musculus with 11 samples.

Results

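The molecular chaperones of mouse liver were described across 3 feeding states: genes of the heat shock protein, DnaJ, chaperonin and disulfide isomerase families. Members were all genes of the array whose listed symbol starts with Hspa, Hspb, Hspd, Hspe, Hsph, Hsp90, Dnaja, Dnajb, Dnajc, Pdia, or Cct followed by a digit, together with Tcp1, Calr, Canx and P4hb. The symbol alone decided membership, and no measured value entered it. This gave 82 genes on 106 spots, of 13406 genes with 1 symbol on 17280 spots. Of the 82 genes, 18 held at least 2 values in every group and were tested, and the other members are accounted for below.

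Liver RNA was measured on 2-colour arrays, 1 mouse per array, against a universal mouse reference RNA that was the same on all arrays. The control group was kept for 10 weeks on chow of 6.5% fat (4 arrays). The high-fat group was kept for the same 10 weeks on food of 42.16% fat (4 arrays, of which 3 were used). Fasted mice ate the high-fat diet and then had no food for the last 48 h (3 arrays), so the fast was studied only on top of the high-fat diet, with no group that was fasted on chow. All were C57BL/6J mice, written C57/BL/6J or C57/BL/J6 in the labels, except that the source label of high-fat array 4 names no strain, and neither age nor sex is given. The labels put 9, 5 and 4 mice in the groups, so the arrays cover some of the mice. The whole liver was sampled, and for every result here a change in RNA per cell and a change in the share of a cell type cannot be told apart.

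Chaperones bind proteins that are not yet folded, or no longer folded, and keep them from clumping until they fold, are passed on or are degraded. HSP70 proteins do this in cycles of ATP binding, which J-domain (DnaJ) proteins start and which nucleotide exchange factors such as HSP110 end. The ring-shaped chaperonin TRiC, built from CCT subunits, encloses actin, tubulin and other clients, and disulfide isomerases form and reshuffle the disulfide bonds of proteins made in the endoplasmic reticulum. Hepatocytes, which secrete most plasma proteins, carry a large load of such clients, and the cytosolic and endoplasmic reticulum chaperones are classic targets of the heat shock response and of the unfolded protein response.

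Values are log2 ratios, liver over reference, from which the median of the array's filled spots was subtracted. A value of 0 is therefore the median filled spot, and the reference cancels in a difference between groups. The ratio compares liver with reference for 1 gene and does not rank the abundance of different genes. The arrays had 3864 to 5567 filled spots, their medians before centring were 0.07 to 0.47, and Pearson's r over shared spots was 0.69 to 0.94 among the 10 arrays used. High-fat array 4 stood apart, with r between -0.03 and 0.01 against the others, and was left out. With it in the fit the number of called chaperones was the same in each of the 3 comparisons. The spread of values (median absolute deviation, scaled to an SD) lay at 0.64 to 0.77 on control arrays, at 0.39 to 0.58 on high-fat arrays and at 0.65 to 0.73 on fasted arrays. Hepatocyte markers fitted the labelled tissue: all 12 of those tested lay above the array median in control livers, with a median of 2.33.

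Most of the well-known chaperones were not measured. Of the 82 genes, 41 (50.0%) had no value on any of the 10 arrays, against 52.3% of all genes with 1 symbol, 23 had some values but too few for the test, and 18 (22.0%) were tested, against 23.6% of all genes. With no value at all were the heat shock proteins Hspa5 (BiP, the HSP70 of the endoplasmic reticulum), Hsp90b1 (its HSP90), Hspa9, Hspd1 and Hspe1 (the HSP70 and the chaperonin of mitochondria), Hsp90aa1 (an HSP90 of the cytosol) and Dnajb1 (the main heat-inducible J-domain partner of HSP70). The same held for the lectin chaperone Canx, the isomerases Pdia3 and Pdia4, and 5 of the 9 chaperonin subunits (Tcp1, Cct2, Cct4, Cct5 and Cct7). Of 21 core chaperones listed by name, 19 had a spot, 7 had a value on at least 1 of the 10 arrays and 3 were tested (Hsph1, P4hb and Pdia6). By family, 7 of 31 J-domain proteins, 4 of 9 chaperonin subunits, 2 of 11 cytosolic HSP70 and HSP110 genes, 2 of 6 disulfide isomerases, 1 of 10 endoplasmic reticulum chaperones and lectins and 1 of 5 small heat shock proteins were tested, and 0 of 6 mitochondrial chaperones. The rule that left cells empty is not given in the sources used here, so a missing value cannot be read as a low level or an absent transcript, or as anything else. On high-fat array 4, 18 of the 41 unmeasured genes (43.9%) held a value, against 31.8% of all genes unmeasured on the 10 arrays. Of the tested genes, 5 of 18 chaperones (27.8%) held a value there, against 34.6% of all. Since that array correlated with no other, a value on it is not read here as a measurement of the gene.

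**Figure D1:**
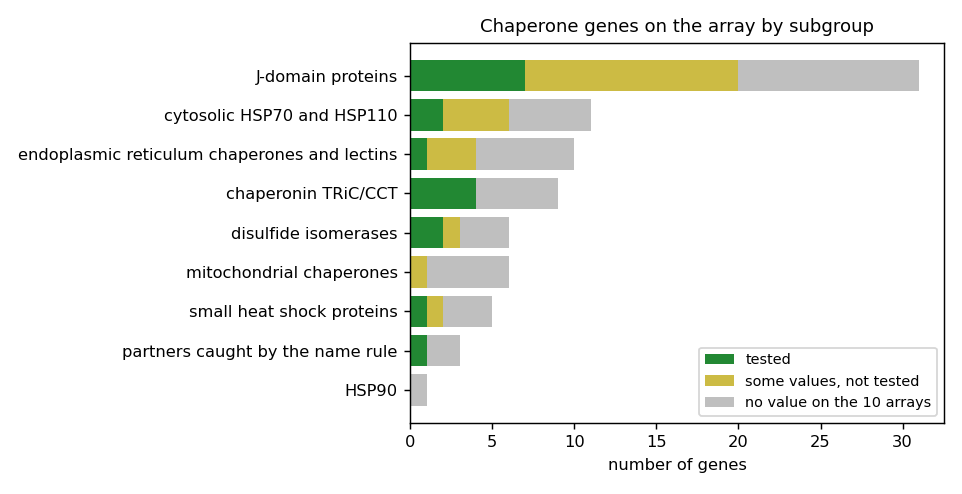
Number of chaperone genes by family (horizontal bars, in genes), split into those tested, those with some values on the 10 arrays but too few to test, and those with no value. The J-domain proteins are the largest family, with 7 of 31 tested, and the single HSP90 gene of the cytosol and the 6 mitochondrial chaperones add no tested gene.

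In control livers, 10 of the 18 tested chaperones differed from the array median (limma, adjusted p under 0.05), 5 above and 5 below. Over all 3558 genes tested, 65.5% differed in this way, 31.1% above and 34.3% below. Above the median were P4hb (protein disulfide isomerase itself) at 1.55, the chaperonin subunits Cct3 at 1.20 and Cct8 at 0.34, and the J-domain proteins Dnajb6 at 0.47 and Dnajc22 at 0.35. Below it were Dnajc10 (ERdj5, a reductase that helps to unfold proteins bound for degradation) at -1.46, the isomerase Pdia6 at -1.20, the J-domain protein Dnajb8 at -0.90, Hspb11 at -0.67 and the chaperonin subunit Cct6a at -0.37. These log2 ratios show that P4hb and Pdia6, both isomerases of the endoplasmic reticulum, lay on opposite sides of the array median relative to the reference RNA. The counts depend on the centring and on single arrays. On the values as deposited, which are not centred, 9 of 18 were called above 0 and 4 below. Without control array 2, 3 of 17 were called above the median and 5 below.

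**Figure D2:**
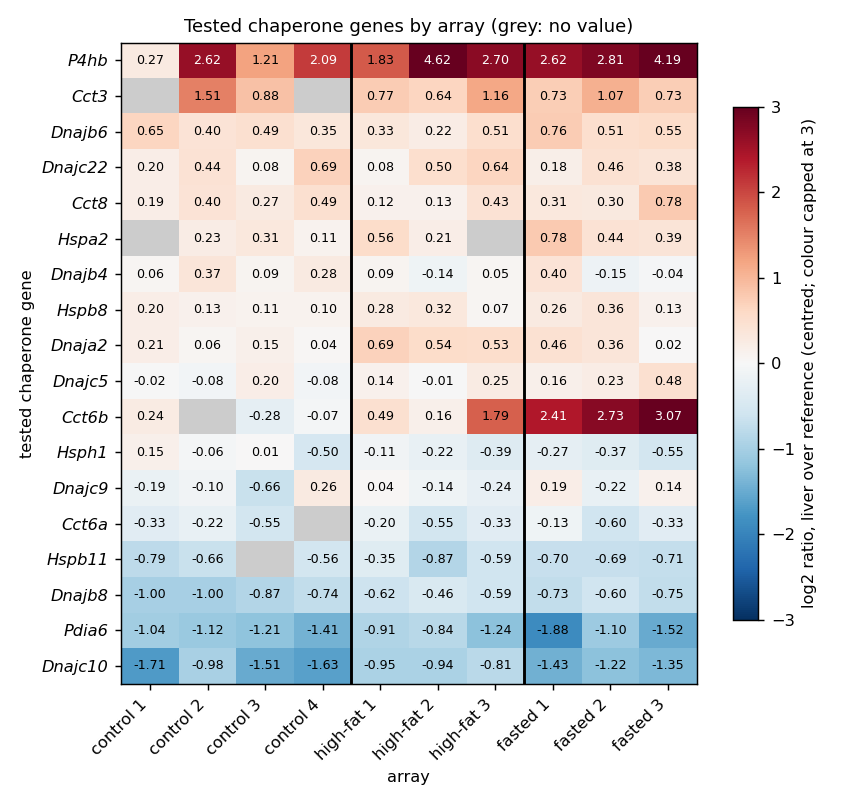
Centred log2 ratio of liver over reference for the 18 tested chaperones (rows, ordered by their level) on the 10 arrays (columns, grouped by vertical lines), with the value printed in each cell and grey where a gene has no value. Cct6b stands out on the 3 fasted arrays at 2.41 to 3.07, and most other rows keep a similar level across all 10 arrays.

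The chaperonin subunit Cct6b was the only tested chaperone whose level changed between the groups by an adjusted p under 0.05, and it was higher after the fast than in control livers. Cct6b is a second form of the zeta subunit of TRiC, next to the widely used Cct6a, and is known mainly from testis. Its centred log2 ratios were 0.24, -0.28 and -0.07 on control arrays 1, 3 and 4, with no value on control array 2. On the high-fat arrays they were 0.49, 0.16 and 1.79, and on the fasted arrays 2.41, 2.73 and 3.07. All fasted arrays lay above all high-fat and control arrays, and high-fat array 3 lay between the fasted arrays and the others, and high-fat array 2 at 0.16 lay within the control range. The group means were -0.04 ± 0.26 (SD, n = 3) in control, 0.81 ± 0.86 (SD, n = 3) in high-fat and 2.74 ± 0.33 (SD, n = 3) in fasted livers.

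Fasted minus control, the log2 difference of Cct6b was 2.77 ± 0.35 (SE), a 6.84-fold higher ratio (limma, adjusted p = 0.00644, 95% interval 2.00 to 3.55). With high-fat array 4 in the fit the adjusted p was 0.0168, and leaving out each of the 10 arrays in turn it was at most 0.0461. It was 1 of 18 chaperones called in this comparison, where 3.2% of all tested genes were called, 2.16% as higher and 1.04% as lower. Fasted minus high-fat, the difference was 1.92 (limma, adjusted p = 0.0520, 95% interval 1.15 to 2.70), which misses the threshold although the groups do not overlap. High-fat array 3 weighs on that value: without it the difference was 2.41 (limma, adjusted p = 0.00285). Control array 2 holds no value of Cct6b, and without it the difference stayed at 1.92, with an adjusted p of 0.0300 (limma). That p moved only through the other genes in the fit. High-fat minus control, the difference was 0.85 (limma, adjusted p = 0.164, 95% interval 0.07 to 1.63), and 0.36 without high-fat array 3. In the F test over the 3 groups Cct6b was again the only chaperone called (limma, adjusted p = 0.0109), where 5.71% of all tested genes were. Over all tested genes, 28 (0.787%) were called higher in fasted than in control livers and also had every fasted array above every high-fat array.

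The other 3 measured chaperonin subunits did not pass the test in any comparison. The paralogue Cct6a had log2 ratios of -0.33, -0.22 and -0.55 on the 3 control arrays with a value, -0.20, -0.55 and -0.33 on the high-fat arrays and -0.13, -0.60 and -0.33 on the fasted arrays. Its fasted minus control difference was 0.01 with a 95% interval from -0.35 to 0.37, so the 3 groups overlapped fully on a spot whose interval is far from the difference of Cct6b. The spots' own sequences are not used here, and how far the Cct6b spot also binds RNA of Cct6a was not tested. Cct8 differed by 0.13 (95% interval -0.21 to 0.46) and Cct3 by -0.35 (95% interval -0.86 to 0.16, with 2 control values) in the same comparison. TRiC rings take their subunits in equal parts, and 5 of its 9 genes had no value here.

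**Figure D3:**
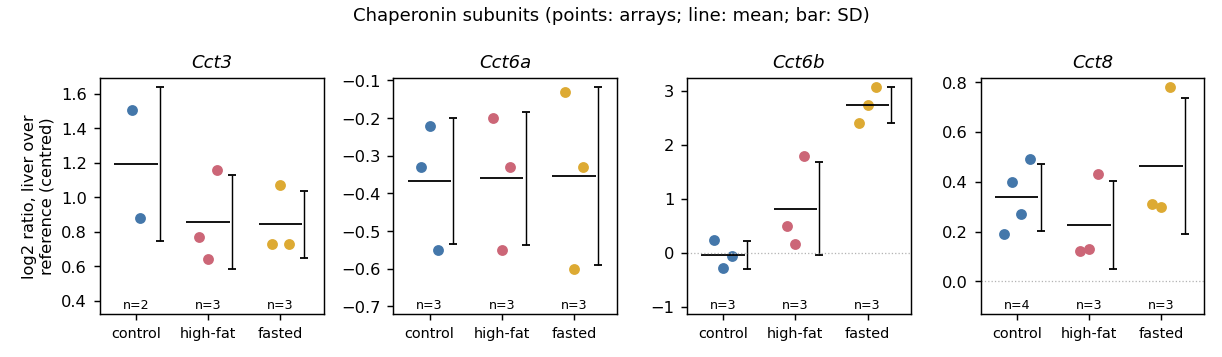
Centred log2 ratio of liver over reference (vertical axis, a separate scale for each panel) for the 4 tested chaperonin subunits in control, high-fat and fasted livers; points are arrays, lines group means and bars SD. Cct6b rises from a control mean of -0.04 to a fasted mean of 2.74, with high-fat array 3 at 1.79, and the groups of Cct6a, Cct8 and Cct3 overlap.

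A marker of another cell type and a gene of early response were also called higher in fasted than in control livers, and neither was called between fasted and high-fat livers. Kdr, a growth factor receptor of endothelial cells, had log2 ratios of -0.08 to 0.42 in control, 0.48 to 0.75 in high-fat and 0.97 to 1.22 in fasted livers, and was higher in fasted than in control livers by 0.90 (limma, adjusted p = 0.0181). Fasted minus high-fat, Kdr differed by 0.50 (limma, adjusted p = 0.177). It is the only tested gene of 10 endothelial markers listed, of which 7 have a spot and 2 a value, so the level of Kdr is also the summed level of the list. Pecam1, Lyve1, Tek, Eng and Clec4g of that list have a spot but no value on the 10 arrays. Summed over the 11 hepatocyte markers filled on all 10 arrays, the log2 ratios came to 19.0 to 31.7 in control, 13.8 to 17.4 in high-fat and 14.9 to 16.5 in fasted livers. Of the 12 tested, 2 were called lower in fasted than in control livers, against 1.04% of all tested genes. Of 4 tested genes of handling and early response, Fosb was called higher in fasted than in control livers, by 1.38 (limma, adjusted p = 0.0414). Over all tested genes, 2.16% were called higher in this comparison. Fosb already lay at 0.91 to 2.36 on the high-fat arrays, with 1.08 for high-fat minus control (limma, adjusted p = 0.0698) and 0.30 for fasted minus high-fat (limma, adjusted p = 0.713). The part of these shifts in the result for Cct6b was not tested.

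Among the disulfide isomerases, P4hb had the widest spread of all tested chaperones. P4hb catalyses disulfide bonds and is also a subunit of prolyl 4-hydroxylase and of the microsomal triglyceride transfer protein, which loads lipid onto lipoproteins. Its log2 ratios were 0.27, 2.62, 1.21 and 2.09 on the control arrays, 1.83, 4.62 and 2.70 on the high-fat arrays and 2.62, 2.81 and 4.19 on the fasted arrays. The highest control array reached the lowest fasted array, the high-fat arrays spanned most of the range, and the groups overlapped. The difference was 1.50 ± 0.66 (SE) for high-fat minus control (limma, adjusted p = 0.180, 95% interval 0.06 to 2.94) and 1.66 ± 0.66 (SE) for fasted minus control (limma, adjusted p = 0.182, 95% interval 0.22 to 3.10). Fasted minus high-fat it was 0.16 (95% interval -1.38 to 1.70), so a difference of over 1 log2 unit in either direction lies within the interval. The high-fat value depends on single arrays, with 0.72 to 2.11 when each array was left out in turn, and it passed the threshold after quantile normalisation (1.76, limma, adjusted p = 0.0305).

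Pdia6, which regulates stress sensors of the endoplasmic reticulum as well as forming disulfide bonds, had log2 ratios of -1.04, -1.12, -1.21 and -1.41 on the control arrays. On the high-fat arrays it had -0.91, -0.84 and -1.24, and on the fasted arrays -1.88, -1.10 and -1.52. Fasted array 1 was the lowest of all, and fasted array 2 lay among the control and high-fat arrays. The difference was -0.50 ± 0.20 (SE) for fasted minus high-fat (limma, adjusted p = 0.279, 95% interval -0.93 to -0.08), and -0.09 when the arrays were scaled to a common spread. It was -0.31 without fasted array 1, -0.70 without fasted array 2 and -0.86 with high-fat array 4 in the fit, and it passed the threshold in none of these. High-fat minus control it was 0.20 (95% interval -0.20 to 0.60), which turned to -0.18 under that scaling.

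Among the 16 tested chaperones with a promoter window, Pdia6 is the only 1 that holds an element through which the unfolded protein response acts, in the spelling searched here. The endoplasmic reticulum stress element, spelled as CCAAT and CCACG with 9 bases of any kind between them and searched on both strands, was found in 6 of 87 promoter windows of chaperones (6.9%) and in 0.119% of 32851 windows of all genes. A window of 300 bases ran from 250 before to 50 after a transcript's start in RefSeq (GRCm38.p6), and 69 of the 82 chaperones matched, 16 of the 18 tested ones among them. The other 5 genes with the element are Hspa5, Hsp90b1, Canx, Calr and Dnajc3 (an inhibitor of a stress kinase). Of these, Hspa5, Hsp90b1, Canx and Dnajc3 had no value on the 10 arrays and Calr had too few, so only Pdia6 of the 6 was tested. The 250 bases before the start of Pdia6, at chr12:17266339-17266588 (+ strand), are shown for the place of the element, whose fixed letters are in capitals and whose first base lies 98 bases before the start.
Pdia6: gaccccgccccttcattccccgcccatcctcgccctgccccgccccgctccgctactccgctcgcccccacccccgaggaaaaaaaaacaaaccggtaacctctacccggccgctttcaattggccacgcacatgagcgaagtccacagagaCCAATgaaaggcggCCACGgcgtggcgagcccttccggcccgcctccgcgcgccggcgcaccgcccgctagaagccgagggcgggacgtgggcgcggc

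The elements of all 6 genes, written in the direction of each gene with the fixed letters in capitals, are shown because they place Pdia6, the tested gene, beside the 5 genes of this group that could not be tested. The capitals were set by the search, and the 9 bases between them differ from gene to gene. Some are read on the opposite strand, where CGTGG comes before ATTGG, and Hsp90b1 holds a copy of each kind.
Pdia6, chr12:17266491-17266509: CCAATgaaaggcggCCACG
Hspa5, chr2:34772025-34772043: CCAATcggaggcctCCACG
Hsp90b1, chr10:86705638-86705656: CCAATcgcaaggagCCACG
Hsp90b1, chr10:86705533-86705551: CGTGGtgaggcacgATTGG
Canx, chr11:50325800-50325818: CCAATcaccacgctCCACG
Dnajc3, chr14:118937827-118937845: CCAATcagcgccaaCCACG
Calr, chr8:84847075-84847093: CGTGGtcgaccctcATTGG
The genes Hspa5, Dnajc3 and Pdia6 lie on the + strand and the other 3 on the - strand. The letters are a match in these windows and do not show that a factor bound there.

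Dnajc10, a J-domain protein with thioredoxin domains that also belongs to the wider isomerase family, was the only other tested chaperone of the endoplasmic reticulum. Its log2 ratios were -1.71, -0.98, -1.51 and -1.63 on the control arrays, -0.95, -0.94 and -0.81 on the high-fat arrays and -1.43, -1.22 and -1.35 on the fasted arrays. Every high-fat array lay above every control and every fasted array, and control array 2 at -0.98 came within 0.03 of the lowest high-fat array. The difference was 0.56 ± 0.17 (SE) for high-fat minus control (limma, adjusted p = 0.0702, 95% interval 0.19 to 0.92) and -0.43 for fasted minus high-fat (limma, adjusted p = 0.306, 95% interval -0.82 to -0.04). Without control array 2 the first of these was 0.72 and passed the threshold (limma, adjusted p = 0.0128). With the arrays scaled to a common spread it was 0.17 (limma, adjusted p = 0.729), and the high-fat arrays have the narrowest spread of values, as given above.

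**Figure D4:**
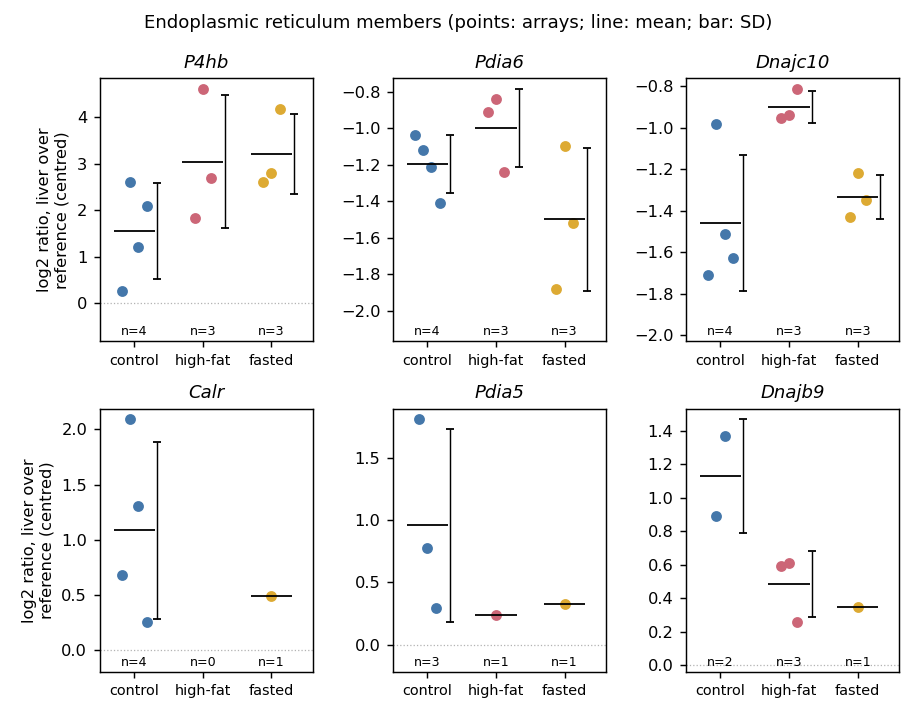
Centred log2 ratio of liver over reference (vertical axis, a separate scale for each panel) for 6 chaperones of the endoplasmic reticulum, of which P4hb, Pdia6 and Dnajc10 were tested and Calr, Pdia5 and Dnajb9 have too few values; points are arrays, lines group means, bars SD, and n the arrays with a value. The high-fat arrays of Dnajc10, at -0.95 to -0.81, lie above all others, and Calr has no value on the high-fat arrays.

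Of the families of endoplasmic reticulum chaperones and lectins and of disulfide isomerases, as grouped here, another 4 genes had values but were not tested. Calr, a calcium-binding lectin chaperone, had log2 ratios of 0.68, 2.09, 1.31 and 0.26 on the control arrays and 0.49 on fasted array 1, with none on the high-fat arrays. Pdia5 had 1.81, 0.78 and 0.29 on control arrays 2 to 4, 0.24 on high-fat array 1 and 0.33 on fasted array 2. Dnajb9 (ERdj4, a J-domain partner of BiP) had 0.89 and 1.37 on control arrays 1 and 2, 0.59, 0.61 and 0.26 on the high-fat arrays and 0.35 on fasted array 1. Hspa13, an HSP70 of the endoplasmic reticulum, had -0.05 on control array 2 and -0.11 on high-fat array 1, both on the same spot. Its value of 1.67 on control array 4 came from another spot, so its control values cannot be compared with each other. The highest value was on control array 2, the array with the most filled spots (5567), for Calr, Pdia5 and Dnajb9.

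For high-fat minus control, none of the 18 tested chaperones was called (limma, adjusted p under 0.05), where 4.92% of all tested genes were called, 2.95% as higher and 1.97% as lower. At an unadjusted p under 0.05 there were 5 of 18 chaperones, against 25.2% of all tested genes. The groups did not overlap for 3 chaperones, all higher in high-fat livers (Dnaja2, Dnajb8 and Dnajc10), against 25.4% of all tested genes, 16.7% higher and 8.77% lower. The difference was above 0 for 13 of 18, against 60.4% of all, and the median difference was 0.08 for the chaperones and 0.08 for all tested genes. With 18 genes, these counts lie near the shares of all tested genes. In data simulated with the same gaps and normal noise, 93 of 100 genes with a log2 difference of 1, drawn from all tested genes, were recovered in this comparison. That share does not carry over to smaller differences or to genes with a wide spread, such as P4hb, whose difference of 1.50 was not called. The simulation changed 100 genes by 1 and 100 by 2 log2 units. An adjusted p depends on how many genes change and by how much, so the share is not a rate for the measured arrays.

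Of the J-domain proteins, Dnaja2 and Dnajb8 had high-fat arrays apart from the control arrays. Dnaja2, a cytosolic partner of HSP70 in refolding, had log2 ratios of 0.21, 0.06, 0.15 and 0.04 on the control arrays, 0.69, 0.54 and 0.53 on the high-fat arrays and 0.46, 0.36 and 0.02 on the fasted arrays. All high-fat arrays were above all others, and fasted array 3 lay below every control array. High-fat minus control, the difference was 0.47 ± 0.13 (SE) (limma, adjusted p = 0.0596, 95% interval 0.19 to 0.76). It passed the threshold after quantile normalisation (0.69, adjusted p = 0.0263), with the arrays scaled to a common spread (0.67, adjusted p = 0.0424), among genes filled on all 10 arrays (adjusted p = 0.0437) and without fasted array 3 (adjusted p = 0.0459), all by limma. Fasted minus high-fat it was -0.31 (limma, adjusted p = 0.340, 95% interval -0.61 to -0.0010).

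Dnajb8, a J-domain protein that keeps polyglutamine proteins from aggregating, had log2 ratios of -1.0, -1.0, -0.87 and -0.74 on the control arrays, -0.62, -0.46 and -0.59 on the high-fat arrays and -0.73, -0.60 and -0.75 on the fasted arrays. The high-fat arrays lay above all control arrays, and fasted array 2 lay among the high-fat arrays. The high-fat minus control difference was 0.35 (limma, adjusted p = 0.0974, 95% interval 0.09 to 0.60), and 0.09 with the arrays scaled to a common spread. Under that scaling the difference was larger for Dnaja2, which lies above the array median, and smaller for Dnajb8, which lies below it.

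Dnajc5 (cysteine string protein, a chaperone of vesicle release) had log2 ratios of -0.02, -0.08, 0.20 and -0.08 on the control arrays, 0.14, -0.01 and 0.25 on the high-fat arrays and 0.16, 0.23 and 0.48 on the fasted arrays. Control array 3 lay among the fasted arrays, so the groups overlapped, and the fasted minus control difference was 0.29 (limma, adjusted p = 0.247, 95% interval -0.0019 to 0.57). The other 4 tested J-domain proteins differed in this comparison by -0.13 (Dnajb4), -0.01 (Dnajc22), 0.13 (Dnajb6) and 0.21 (Dnajc9, a histone chaperone). None of the 7 was called in any of the 3 comparisons between groups. Dnajb4 is the mean of 2 spots, whose fasted minus control differences of 0.16 and -0.23 had opposite signs.

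Genes of tissue handling and hepatocyte markers held calls between high-fat and control livers, and the tested markers of the other liver cell types held none. Of 25 genes of handling and early response, 24 have a spot and 4 were tested, and their median difference was 0.57. Jun, a transcription factor induced within minutes by stress, was called higher by 0.63 (limma, adjusted p = 0.0248). It was the only 1 of these 4 genes called, where 2.95% of all tested genes were called higher. Averaged over the 3 of them filled on all 10 arrays, the list lay at -0.64 to -0.12 in control, 0.05 to 0.56 in high-fat and 0.15 to 0.41 in fasted livers. The hepatocyte markers had a median difference of -0.60 with 2 of 12 called lower, against a median of 0.08 and 1.97% called lower over all tested genes. The macrophage marker C1qc, the only tested gene of 14 listed, of which 11 have a spot and 4 a value, lay at -1.16 to -0.56 in control and -0.65 to -0.17 in high-fat livers, which overlap (limma, adjusted p = 0.0908), and the Kupffer cell markers Clec4f, Marco, Cd68 and Adgre1 have no value on the 10 arrays. Without being called, Kdr differed by 0.40, the bile duct marker Sox9 by 0.47 and the adipose marker Retn by -0.03. Of 5 stellate and fibroblast markers, 2 were above 0 (Pdgfrb 0.52, Col1a2 0.56) and 3 below. Of 5 lymphocyte and neutrophil markers, 3 were above 0, S100a9 highest at 0.47, and 2 below. High-fat arrays lay above all control arrays for Kdr, Pdgfrb and S100a9, as for 16.7% of all tested genes. The part of these lists in the values of Dnaja2, Dnajb8 and Dnajc10 was not tested. In control livers Jun lay at -0.84, Fosb at 0.41 and the 12 hepatocyte markers at a median of 2.33. The high-fat arrays have the narrowest spread of values, as given above. These lists were not refitted with the arrays scaled to a common spread, and the part of that spread in their differences was not tested.

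For fasted minus high-fat, none of the 18 chaperones was called by limma, where 0.365% of all tested genes were, 0.0843% as higher and 0.281% as lower. At an unadjusted p under 0.05 there were 4 of 18, against 14.6% of all tested genes: Cct6b with a positive difference, and Pdia6, Dnajc10 and Dnaja2 with negative ones. The groups did not overlap for Cct6b (higher in fasted) and for Dnaja2 and Dnajc10 (lower), against 28.8% of all tested genes, 11.1% higher and 17.8% lower. The difference was above 0 for 10 of 18 chaperones, against 43.3% of all tested genes, and the medians were 0.02 and -0.05. This comparison shares its high-fat arrays with high-fat minus control, so the paired signs of Dnaja2 and Dnajc10 rest on the same 3 arrays. For fasted minus control, which shares the control arrays, 2 chaperones had an unadjusted p under 0.05 (Cct6b and P4hb), against 20.4% of all tested genes. The groups did not overlap for Cct6b and Hspa2, both higher, against 22.2% of all tested genes, 12.6% higher and 9.58% lower. The difference was above 0 for 12 of 18 chaperones, against 52.1% of all tested genes, and the medians were 0.13 for the chaperones and 0.02 for all genes.

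**Figure D5:**
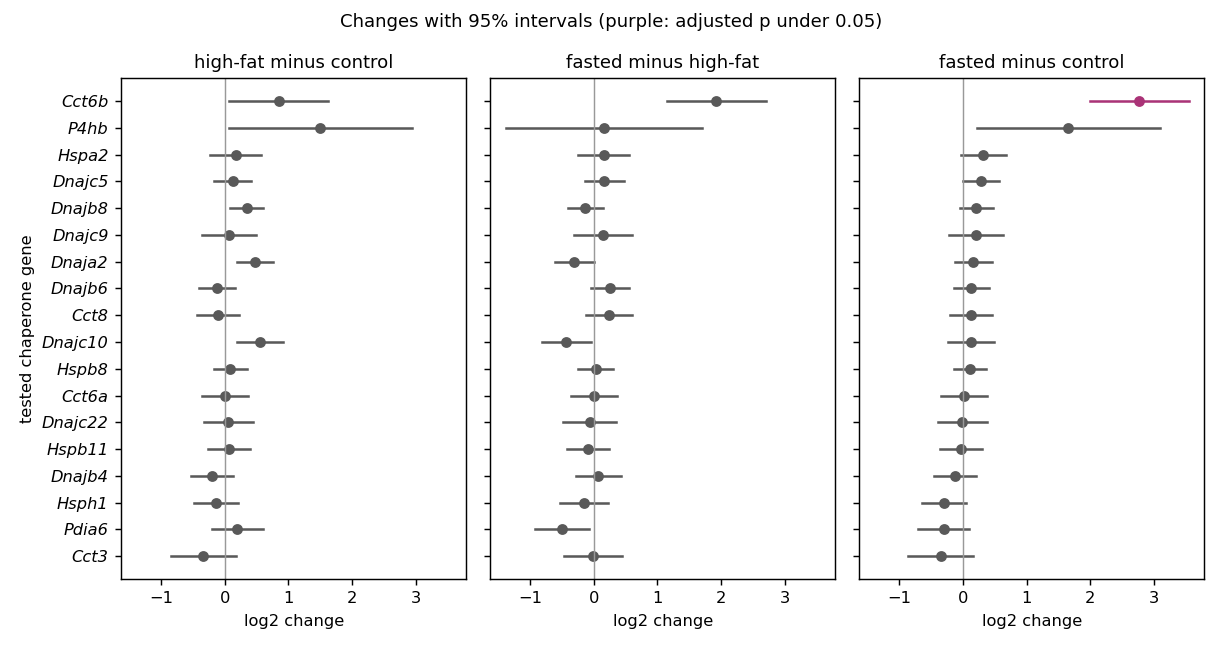
Difference in log2 ratio (horizontal axis) with its 95% interval for the 18 tested chaperones in each of the 3 comparisons, ordered by the fasted minus control difference; purple marks an adjusted p under 0.05. Cct6b in fasted minus control, at 2.77, is the only purple point, and the interval of P4hb is the widest in every panel.

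The cytosolic HSP70 and HSP110 genes showed no called difference. Hsph1, the HSP110 that exchanges the nucleotide of HSP70 and is strongly induced by heat, had log2 ratios of 0.15, -0.06, 0.01 and -0.50 on the control arrays, -0.11, -0.22 and -0.39 on the high-fat arrays and -0.27, -0.37 and -0.55 on the fasted arrays. Control array 4 lay among the lowest, so the groups overlapped. The fasted minus control difference was -0.30 (limma, adjusted p = 0.322), with a 95% interval from -0.65 to 0.05 that leaves out a rise of 1 log2 unit. Hspa2, an HSP70 known from testis, had 0.23, 0.31 and 0.11 on control arrays 2 to 4, 0.56 and 0.21 on high-fat arrays 1 and 2 and 0.78, 0.44 and 0.39 on the fasted arrays. All fasted arrays lay above all control arrays with a value, and the difference was 0.32 (limma, adjusted p = 0.294, 95% interval -0.04 to 0.68). Without fasted array 1 it was 0.20.

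Hspa1a, the heat-inducible HSP70, has 17 spots, of which 3 held any value, between -0.93 and -0.04. Its constitutive relative Hspa8 (HSC70) had -0.12 and -0.12 on control arrays 1 and 2, -0.30 on high-fat array 1 and -0.22 on fasted array 1. The values of both genes lay below the array median in all 3 groups, and neither gene had the 2 values per group asked for in the test. Dnaja1, the cytosolic partner of HSC70, had 0.32, 0.72 and 0.29 on control arrays 1, 2 and 4 and 0.12 on high-fat array 1.

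Among the 16 tested chaperones with a promoter window, Hsph1 and Dnajb6 hold a heat shock element of 3 units. This element is spelled as GAANNTTC followed by NNGAA and was searched on both strands, and its sites overlap the 2-unit form by their letters. It was found in 6 of 87 chaperone windows (6.9%) and in 0.603% of all windows. The 2-unit form GAANNTTC was found in 14 of 87 (16.1%) and in 7.86% of all windows, and among tested chaperones also in Hspb8. The sites of both genes are shown beside those in the promoter shared by Hspd1 and Hspe1, the mitochondrial chaperonin pair. Windows of Hspd1 and of Hspe1 cover these sites, and neither gene had a value here. Capitals mark the fixed letters.
Dnajb6, chr5:29735852-29735864, + strand: GAAtcTTCcgGAA
Hsph1, chr5:149636288-149636300, - strand: TTCtgGAAagTTC
Hspe1, chr1:55088064-55088076, + strand: GAAccTTCcgGAA
Hspe1, chr1:55088059-55088071, + strand: TTCtaGAAccTTC
The site of Hsph1 lies just after its transcript's start, and that of Dnajb6 has its first base 46 bases before it. Both measured carriers had fasted minus control intervals that include 0, from -0.65 to 0.05 for Hsph1 and from -0.15 to 0.42 for Dnajb6.

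The small heat shock proteins hold ATP-independent chaperones that keep unfolding proteins soluble. Hspb8, which works with Bag3 in selective autophagy, differed by 0.12 for fasted minus control (95% interval -0.14 to 0.37), and Bag3 itself by 0.08. Hspb7, known from heart and muscle, was not tested for want of high-fat values. It had 1.11, 1.04, 0.91 and 0.72 on the control arrays, 0.81 on high-fat array 1 and 0.98, 0.92 and 1.16 on the fasted arrays, so that the fasted values lay within or just above the control range. Hspb11, caught by its symbol although it is a transport protein of cilia, differed by -0.03. It is the mean of 2 spots, 1 of which has no value on the fasted arrays, and the other spot alone differed by -0.09.

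The intervals show what these arrays could tell. Over the 18 chaperones and 3 comparisons, the 95% half-width was 0.36 log2 units in the median and 0.25 at its narrowest. It was 1.54 for P4hb at its widest, and at most 0.51 without P4hb and Cct6b. For the other 16 chaperones, then, the intervals span at most about 1 log2 unit, and an adjusted p over 0.05 does not show that a level stayed the same.

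The 23 chaperones with some values but no test were filled more often in control livers than in the others. They had a value in 46.7% of control cells, 23.2% of high-fat cells and 26.1% of fasted cells, against 32.2%, 31.2% and 25.6% for all genes with values but no test. Of the 23, 18 were filled on a larger share of control than of high-fat arrays, a count that was not made over all genes. Dnajb13, known from sperm tails, was filled most often after the fast, with 0.32 and 0.40 on 2 control arrays, -0.05, 0.02 and -0.14 on the fasted arrays and none on the high-fat arrays. Control array 2, with the most filled spots, held 35 chaperones, and the other arrays used held 20 to 29. How much of the larger control share of the 23 genes comes from control array 2 alone was not computed.

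Few partners of these chaperones could be tested, and none was called. Of 66 listed genes of the unfolded protein response and of folding in the endoplasmic reticulum, 58 have a spot and 13 were tested. In limma, 0 were called in any comparison, and an unadjusted p under 0.05 was found for 1 gene in high-fat minus control, 1 in fasted minus high-fat and 0 in fasted minus control. Over all tested genes these shares were 25.2%, 14.6% and 20.4%, and 4.92%, 0.365% and 3.2% were called. With 13 genes, a count of 0 called lies near the called shares. Ddit3 (CHOP, a transcription factor of prolonged stress) had the smallest p, at 0.36 for high-fat minus control (limma, adjusted p = 0.0870). Its groups did not overlap there, as for 25.4% of all tested genes. Fasted minus high-fat, 2 of the 13 had a difference above 0, against 43.3% of all tested genes, and their median was -0.11, against -0.05 for all tested genes. Of 40 listed co-chaperones and heat shock regulators, 34 have a spot and 7 were tested, with 0 called by limma and 2, 0 and 0 at an unadjusted p under 0.05 in the same 3 comparisons, to be read against the same shares. Among them Stub1 (CHIP, a ubiquitin ligase bound to HSP70) had -0.43 for high-fat minus control (limma, adjusted p = 0.117) on 2 control arrays, and Stip1, which bridges HSP70 and HSP90, -0.57 (limma, adjusted p = 0.278). Of 18 mitochondrial partners and proteases, 13 have a spot and 0 could be tested.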

How the data were processed

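The authors deposited 1 log ratio per spot, taken here as log2, with liver RNA in Cy5 over reference RNA in Cy3 per the labels. Not given in the sources used here are the base, the background correction, the normalisation and the rule for empty cells. Genes are named from the platform's table: 14718 of 17280 spots carry 1 symbol, 1 several and 2561 none. Each array was centred on its median, spots of 1 symbol were averaged, and genes with at least 2 values per group were tested, 3558 in all (3169 with a symbol). One limma 3.58.1 fit (R 4.3.3, lmFit and eBayes, residual df 7, prior df 4.96) covered 10 arrays, with two-sided tests and Benjamini-Hochberg adjustment over all tested genes in each comparison. Nothing says that arrays were technical repeats: each is labelled as a mouse, and p-values measure the spread between these mice.

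High-fat array 4 was left out, since it correlated with no other array. The members, lists and tests were chosen with earlier results of these data known. Values per array are given for called chaperones, the 4 with the smallest p in each comparison and a named list of 21 core chaperones where tested, and other tested chaperones when their family is described. Values of untested genes and the genes tied to a promoter motif were chosen after their values were seen. Same-numbered arrays were not treated as pairs: the 9 correlations of their deviations were -0.17 to 0.15. The 3 over 0.1, at 0.12, 0.15 and 0.13, were those among the arrays numbered 1, and the reason was not tested. Alternatives changed the centring, scaling, filter, spot averaging, arrays, groups in the fit and block, and left out each array in turn. The pipeline was tested on simulated data with 3558 genes, where it recovered 93, 88 and 93 of 100 genes changed by 1 log2 unit in the comparisons of high-fat with control, fasted with high-fat and fasted with control, and made 9, 6 and 9 false calls. Another 100 genes were changed by 2 log2 units, and the normal noise of a gene was the same in every group. On the measured arrays 0.365% of tested genes were called in fasted minus high-fat. The recovered counts therefore check the code and do not give the power on the measured arrays. Spot intensities were not analysed here, which leaves signal over background unknown, and precision is limited by the number of arrays. Promoter letters came from RefSeq tables (GRCm38.p6), and spots have no coordinates here.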

Additional observations from a re-analysis of the deposited data

How the results depend on the processing

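Of 528 values of the 9 chaperones given per array, recomputed under 20 alternatives, 503 kept direction and side of the threshold, 10 passed it newly, 0 lost it and 15 turned direction. The fasted minus control difference of Cct6b was called in all 19 settings that tested it, at 2.50 to 2.94 with adjusted p from 2.66e-04 to 0.0461 (limma). For fasted minus high-fat it was 1.51 to 2.41 with adjusted p from 0.00285 to 0.182.

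The number of chaperones called in high-fat minus control was 1 with arrays scaled to a common spread, 2 after quantile normalisation, 1 with a value required on all 10 arrays, and 0 to 1 when each array was left out. In fasted minus high-fat it was 1 on the values as deposited, 1 with only the groups compared in the fit, and 0 to 1 leaving out each array. In fasted minus control it was 0 with all 10 values required, because Cct6b has 9 and was not tested. The F test called 3 after quantile normalisation, 0 with all 10 values required and 1 to 2 leaving out each array.

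The median difference of the chaperones moved to 0.22 (fasted against high-fat) and 0.31 (fasted against control) on the values as deposited, where array medians differ. It was -0.00125 (high-fat minus control) and 0.036 (fasted minus control) after centring on spots filled on all 10 arrays, 0.18 (high-fat minus control) after quantile normalisation, 0.032 (fasted minus control) with at least 1 value per group, and 0.072 (fasted minus high-fat) with all 11 arrays. Leaving out each array, it was 0.06 to 0.12, -0.02 to 0.05 and 0.09 to 0.15 in the 3 comparisons.

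Directions turned, for values that were not called, as follows, and the cause was not tested. Fasted minus high-fat, Dnajb8 was 0.067 as deposited, 0.098 scaled and 0.061 after quantile normalisation, Hsph1 0.047 as deposited, Hspa2 -0.088 scaled and -0.054 quantile, and P4hb -0.84 scaled, -0.094 quantile and -0.45 to 0.94 leaving out each array (-0.45 without high-fat array 1, -0.02 without high-fat array 3, -0.34 without fasted array 3). High-fat minus control, Pdia6 was -0.18 scaled and -0.053 quantile, and Hsph1 0.14 with all 11 arrays. With the replicate number as a block, which the arrays do not share by design, Hspa2 turned to -0.06 in high-fat minus control, Cct6b stayed called in fasted minus control (2.92, limma adjusted p = 0.0149), and 0, 0 and 1 chaperones were called in the 3 comparisons, as without the block. In 9 arrays numbered 1 to 3, 3 correlated best with their own number.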
